A study of Ovis aries with 2 samples.

Results

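The RNA-richest neurons of this series were 140 barcodes of the pre-processed library, out of 2125 barcodes in that library and 3030 in the series. Tissue was cerebral cortex of an adult female Rambouillet sheep (Ovis aries), wild type, with 18 to 36 months given as the age range and no treatment in the living animal. The design text speaks of tissue from a single ewe that was divided between 2 conditions. In the post-processed condition debris and red blood cells were removed before nuclei were isolated, and in the pre-processed condition nuclei were isolated from the dissected cortex without that step. For the post-processed library, the label on treatment says that no such removal took place, against its title and the design text, and the groups used here follow the titles. Both libraries are single-nucleus RNA libraries made with the Illumina T2 kit and carry the same batch label, with 1 library per condition. The study asked how tissue processing affects the makeup of neural cell types.

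Members were selected on measured values, all of them counts of unique molecular identifiers (UMIs, 1 per captured RNA molecule) over the genes listed in the matrix, or the same counts per 1000000 UMIs of a barcode (CPM). A member had at least 12000 UMIs and at least 4000 CPM of SYT1, the calcium sensor of synaptic vesicle release. It also had less than 2000 CPM of NXPH1 and ALK together, less than 1500 CPM of RELN, THSD7B, VIP and IGF1 together, less than 1000 CPM of SEMA3E, SYT6, NXPH2 and NPFFR2 together, and less than 1000 CPM of ABI3BP, GUCA1C, COL9A1 and IL20RB together. These 4 exclusions remove nuclei rich in genes that mark other neuron classes. Total UMIs, SYT1 and the 14 excluded genes are therefore properties of the selection and are given only as a description. The matrices list 13765 features, with 9847 of the 21300 protein-coding genes of the RefSeq sheep gene table, so totals and CPM refer to this subset and are not the depth of whole libraries.

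A neuron's nucleus holds newly made and unspliced RNA, so nuclear libraries are rich in transcripts of long genes for adhesion, synapse and channel proteins. Large projection neurons are known to yield more RNA per nucleus than small neurons or glia. Cortical excitatory neurons are usually told apart by layer and by the target of their axon. Intratelencephalic cells project within the telencephalon, the part of the forebrain that holds the cortex. Corticothalamic and extratelencephalic cells project out of it. Inhibitory neurons are told apart by peptides, transcription factors and receptors such as ERBB4.

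The 140 members had 12012 to 45679 UMIs per nucleus with a median of 15770, and 2220 to 4779 detected genes with a median of 2976.5. They made up 6.59% of the pre-processed barcodes (exact 95% interval 5.57 to 7.73%) and held 25.3% of that library's 9580441 UMIs. The members thinned out quickly with depth, as 75 had at least 15000 UMIs, 33 at least 20000, 12 at least 25000 and 4 at least 30000. The deepest barcode of the series, at 45679 UMIs, was a member. Across members the number of detected genes went with the UMI total (Pearson r 0.836, n = 140 nuclei of 1 library), whereas SYT1 CPM did not (r = -0.07).

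No post-processed barcode met the rule, 0 of 905, which allows a share of up to 0.331% of barcodes. The median depth was 146 UMIs in post-processed barcodes and 2524 in pre-processed ones. The bound therefore concerns barcodes that meet the floor of 12000 UMIs and not the share of such neurons. Only 4 barcodes of the post-processed library reached 12000 UMIs. Those 4 held 0 or 1 SYT1 UMI each, and they held 29 to 66 UMIs of INPP5D, a phosphatase gene of microglia and other myeloid cells, and 5 to 50 UMIs of UGT8, an enzyme of myelin lipid synthesis. The highest SYT1 level among the 65 post-processed barcodes with at least 3000 UMIs was 421 CPM. A single post-processed barcode, at a lower depth, reached 4000 CPM of SYT1. Each condition has a single library and there was 1 animal, so variation between preparations is unknown, no test or p-value is given, and intervals cover counting error only. No barcode sequence was shared between the libraries.

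**Figure D1:**
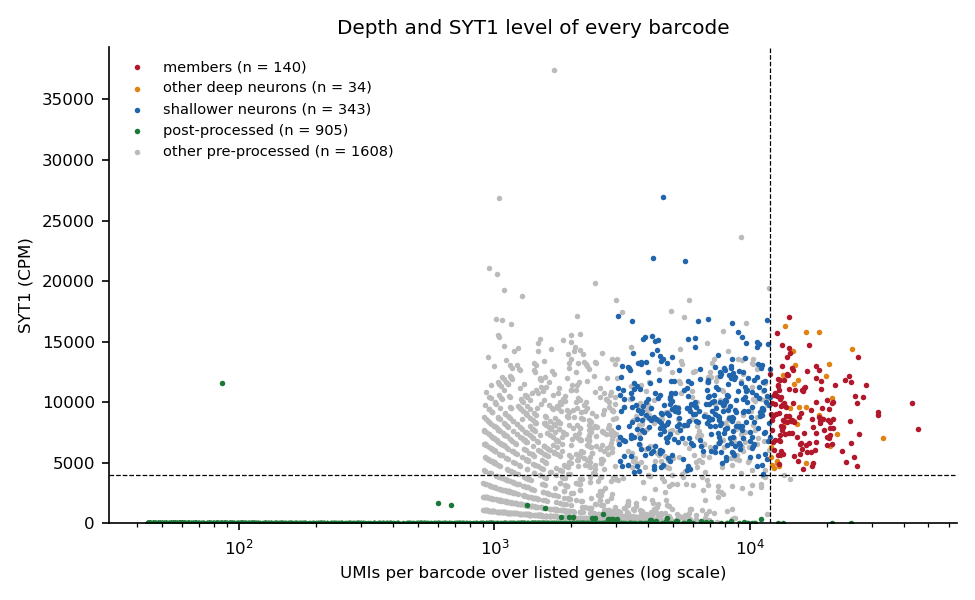
Each point is 1 barcode, with UMIs over the listed genes on the horizontal axis (log scale) and SYT1 in CPM on the vertical axis, and the dashed lines mark 12000 UMIs and 4000 CPM. The 140 members fill the upper right corner together with 34 other deep neurons, and no post-processed barcode lies there.

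The floor of 12000 UMIs cut through a continuous range. The members nearest to it had 12012, 12109 and 12154 UMIs, and the nearest nuclei left out had 11964, 11961 and 11957. The SYT1 floor lay in a sparse region, since the lowest members had 4467, 4700 and 4726 CPM and the nearest barcode left out had 3691 CPM. Member SYT1 ran from 4467 to 17034 CPM with a median of 8823. For NXPH1 and ALK the highest members had 1074 CPM and the nearest nucleus left out had 3335 CPM, so no nucleus stood near that limit. For the RELN set the highest member had 1498.5 CPM and the nearest nucleus left out 2303 CPM. For the SEMA3E set these values were 921 CPM inside and 1039 CPM outside, and for the ABI3BP set 817 CPM inside and 1167 CPM outside. NXPH1 and ALK had no UMI in 99 members and the SEMA3E set none in 93.

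Among the 176 pre-processed barcodes of at least 12000 UMIs, 174 reached the SYT1 floor, and 34 of those were left out by the exclusions. The 34 comprised 11 over the NXPH1 and ALK limit, 2 over the RELN limit, 12 over the SEMA3E limit and 14 over the ABI3BP limit, some over more than 1. Their depth overlapped that of the members, with a median of 14930 UMIs and a range of 12127 to 33170.

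Members were compared with 343 shallower neurons of the same library, which passed the same SYT1 floor and exclusions at 3000 to under 12000 UMIs. The comparison asks what distinguishes the deepest nuclei from others chosen by the same genes. Summed, the members held 2426273 UMIs and the shallower neurons 2304853, so both sums were measured at close to the same depth. In such sums, more nuclei that contain a gene and more RNA of it per nucleus cannot be told apart.

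Composition was similar for most genes. Of 4191 genes with at least 100 UMIs in both groups together, 79.6% lay within 0.5 of 0 on the log2 scale, the median log2 ratio of members over shallower neurons was -0.10, and 62.2% lay below 0. At least 2-fold higher in members were 25 genes, which is 0.597% of those tested, and at least 2-fold lower were 51 genes, or 1.22%. All 25 and all 51 had a 95% counting interval on 1 side of 0. With at least 100 UMIs and nearly equal sums, any 2-fold difference gives such an interval, so this adds no support. Scaled to the median of the gene ratios instead of to total UMIs, 36 genes were at least 2-fold higher and 26 lower, so which direction held more genes depends on the scaling. The 10 genes with the most UMIs in members together held 12.9% of member UMIs and included KCNIP4, PTPRD, CADM2, NRXN3, ADGRB3, NEGR1, NLGN1, SYT1 and LINGO2. These counts are not scaled by gene length, so they do not rank the genes by transcript number. Of these 10 genes, NLGN1, a postsynaptic adhesion partner of neurexins, differed the most, with 9632 CPM in members and 6370 CPM in shallower neurons (log2 ratio 0.60, 0.57 to 0.63). LINGO2, a leucine-rich repeat membrane protein, had 8039 CPM in members and 6207 CPM in shallower neurons (log2 ratio 0.37).

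At an equal depth of 3000 UMIs per nucleus, members had fewer distinct genes. The median was 1215.5 detected genes in members (972 to 1659, mean 1230 ± 88.7 SD over 140 nuclei) and 1288 in shallower neurons (940 to 1727, mean 1294 ± 94.2 over 343 nuclei). The difference of -72.5 genes was smaller than the SD between nuclei, and the ranges overlapped almost fully. Without thinning the medians were 2976.5 detected genes in members and 1997 in shallower neurons.

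The 5 marker genes proposed for these nuclei were LAMB1, TMEM200A, SPHKAP, NTNG1 and MET. All 5 were higher in members than in shallower neurons, with a median log2 ratio of 0.81 and 1 of 5 past 2-fold. They were proposed with these data in view, so their direction is not independent support.

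LAMB1 encodes a laminin beta chain of the extracellular matrix. It had 87.0 CPM in members (75.6 to 99.5) and 46.9 CPM in shallower neurons (38.4 to 56.6), a log2 ratio of 0.89. It had no UMI in 77 of 140 members, a median of 0 and a highest count of 16 UMIs, and the 10 members with the most LAMB1 held 39.8% of its UMIs. After thinning to 3000 UMIs, 28 of 140 members had a LAMB1 UMI (13.7 to 27.6%). The share was 9.04% of shallower neurons (6.22 to 12.6%). In the 165 barcodes of at least 3000 UMIs with SYT1 under 1000 CPM, which should lack a neuronal gene, it was 0.606%. Unthinned shares were 45.0% of members, 16.3% of shallower neurons and 0.606% of SYT1-poor barcodes, at median depths of 15770, 6351 and 4031 UMIs.

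TMEM200A encodes a transmembrane protein. It had 113 CPM in members (99.95 to 127) and 64.2 CPM in shallower neurons (54.3 to 75.4), a log2 ratio of 0.81. It had no UMI in 77 members, a median of 0 and at most 22 UMIs. Thinned shares were 18.6% of members (12.5 to 26.015%), 12.5% of shallower neurons (9.22 to 16.5%) and 3.64% of SYT1-poor barcodes, so the intervals of the first pair overlapped. The corresponding unthinned shares were 45.0%, 21.6% and 3.64%.

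SPHKAP, which anchors protein kinase A, was the marker found in the most members. It had 303 CPM in members (281 to 325) and 213 CPM in shallower neurons (195 to 233), a log2 ratio of 0.51. A UMI was seen in 121 of 140 members, with a median of 4 and a highest count of 40. Thinned shares were 47.9% of members (39.4 to 56.5%), 42.6% of shallower neurons (37.3 to 48.0%) and 2.42% of SYT1-poor barcodes, and the first pair overlapped in their intervals. The unthinned shares of the same groups were 86.4%, 62.7% and 3.64%.

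NTNG1 encodes netrin-G1, a membrane-anchored adhesion protein of axons. It had 310 CPM in members (289 to 333) and 263 CPM in shallower neurons (243 to 285), a log2 ratio of 0.24. It was at 0 in 78 members and reached 72 UMIs in 1, and the 10 members with the most held 57.8% of its UMIs. At a common depth its share was 27.9% in members (20.6 to 36.1%), 30.6% in shallower neurons (25.8 to 35.8%) and 4.85% in SYT1-poor barcodes, an order opposite to that of the CPM and within the intervals. Unthinned, these shares were 44.3%, 37.9% and 7.27%.

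MET is the receptor tyrosine kinase for hepatocyte growth factor. It had 58.5 CPM in members (49.3 to 69.0) and 23.9 CPM in shallower neurons (18.0 to 31.1), a log2 ratio of 1.29. It was seen in 36 of 140 members, with at most 14 UMIs, and the top 10 nuclei held 58.5% of its UMIs. Thinned shares were 9.29% of members (5.04 to 15.4%), 4.37% of shallower neurons (2.47 to 7.11%) and 3.03% of SYT1-poor barcodes, with overlapping intervals, and the unthinned shares were 25.7%, 7.58% and 4.85%. In the 34 other deep neurons MET had 3 UMIs in all, or 5.38 CPM (1.11 to 15.7).

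The markers did not define the 140 nuclei as 1 type. All 5 had a UMI in 9 members, 4 in 17, 3 in 39, 2 in 45, 1 in 25 and none in 5. MET and NTNG1 were seen together in 21 members, which is 58.3% of those with MET and 33.9% of those with NTNG1. Across members, on log2 CPM with 100 added, the markers that went together most were LAMB1 with TMEM200A (Pearson r 0.386) and NTNG1 with MET (0.377), while LAMB1 and NTNG1 went slightly apart (-0.119). Points of such a correlation share 1 library and differ in depth. Depth and SYT1 are the selection itself and so give no check of the label of RNA-richest neurons. The marker genes cover only some of the members.

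**Figure D2:**
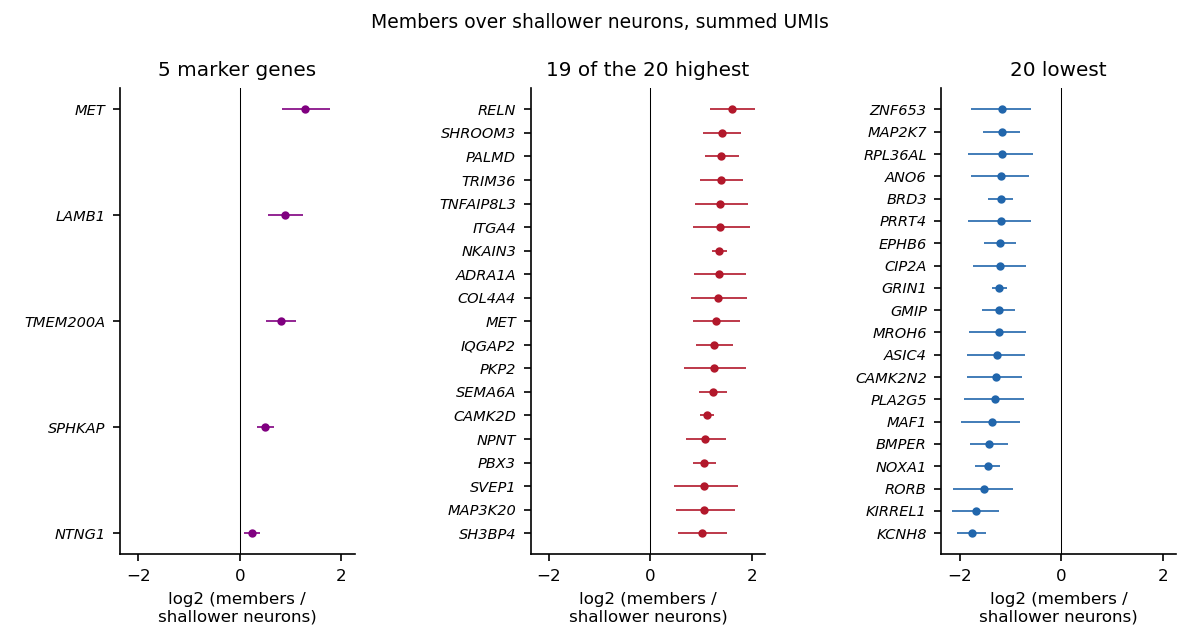
Log2 ratio of summed CPM, members over shallower neurons, for the 5 marker genes and for 19 of the 20 highest and the 20 lowest genes with a symbol and at least 100 UMIs, with exact 95% counting intervals. The marker ratios run from 0.24 for NTNG1 to 1.29 for MET, and the outermost genes are RELN at 1.60 and KCNH8 at -1.76.

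Among the genes with the highest ratios, NKAIN3, a membrane protein that interacts with the sodium pump, had 626 CPM in members (595 to 658) and 244 CPM in shallower neurons, a log2 ratio of 1.36 with a lower bound of 1.22. Its thinned share of nuclei was 49.3% in members (40.7 to 57.9%) and 31.2% in shallower neurons (26.3 to 36.4%), but it was 90.9% in SYT1-poor barcodes, where the level was 2157 CPM, above that of the members. CAMK2D, the delta subunit of calcium/calmodulin-dependent kinase II, had 657 CPM in members (626 to 690) and 304 CPM in shallower neurons, a log2 ratio of 1.11 (0.98 to 1.24). A CAMK2D UMI was found at equal depth in 63.6% of members (55.0 to 71.5%), 49.0% of shallower neurons (43.6 to 54.4%) and 57.0% of SYT1-poor barcodes.

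PALMD, which encodes palmdelphin, had 119 CPM in members and 45.1 CPM in shallower neurons (log2 ratio 1.40, 1.07 to 1.74). At equal depth 19.3% of members (13.1 to 26.8%) and 8.45% of shallower neurons (5.74 to 11.9%) had a PALMD UMI, against 4.24% of SYT1-poor barcodes. SHROOM3, an actin regulator of cell shape, had 93.1 CPM in members and 35.1 CPM in shallower neurons (1.40, 1.03 to 1.79). SEMA6A, a transmembrane semaphorin of axon guidance, had 157 CPM in members and 66.8 CPM in shallower neurons (1.23, 0.96 to 1.51). Its ratio was 0.12 with the exclusions lifted, and SYT1-poor barcodes had 509 CPM of it, above the members. PBX3, a homeodomain transcription factor, had 205 CPM in members and 98.1 CPM in shallower neurons (1.06, 0.84 to 1.30).

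The integrin subunit ITGA4 (log2 ratio 1.37) and the integrin ligand NPNT (1.08), the collagen chain COL4A4 (1.33), the scaffold IQGAP2 (1.26), the desmosomal protein PKP2 (1.24), the matrix protein SVEP1 (1.06) and the kinase MAP3K20 (1.06) were also higher in members. So were the ubiquitin ligase TRIM36 (1.38), TNFAIP8L3 (1.37 by its counts of 121 UMIs in members and 44 in shallower neurons), the adrenergic receptor ADRA1A (1.35) and SH3BP4 (1.01). Several rested on few UMIs, and the lower interval bound of SVEP1 was 0.45. SYT1-poor barcodes had more than members of NPNT (307 CPM there, 74.6 CPM in members), IQGAP2 (160 and 95.6), MAP3K20 (106 and 34.6) and SH3BP4 (105 and 48.2). The other genes of this paragraph were lower there, TNFAIP8L3 only barely (49.8 and 49.9). With the exclusions lifted the ratios were 0.66 for COL4A4, 0.78 for TNFAIP8L3 and -0.29 for ADRA1A. Without 11 nuclei that are described below as the ABTB3 group, they were 0.55 for TNFAIP8L3 and -0.62 for ADRA1A. RELN, the secreted glycoprotein reelin, had the highest ratio of all (1.60, 1.18 to 2.05) with 77.9 CPM in members and 25.6 CPM in shallower neurons. RELN is one of the genes whose upper level the selection capped in both groups, and with the exclusions lifted its ratio was -2.34.

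Among the genes with the lowest ratios, GRIN1, the obligatory subunit of NMDA-type glutamate receptors, had 225 CPM in members (207 to 245) and 522 CPM in shallower neurons, a log2 ratio of -1.21 (-1.36 to -1.07). KCNH8, a voltage-gated potassium channel, had 56.1 CPM in members and 191 CPM in shallower neurons (-1.76, -2.06 to -1.49). At equal depth KCNH8 was seen in 14 of 140 members (5.58 to 16.2%), 61 of 343 shallower neurons (13.9 to 22.2%) and 33 of 165 SYT1-poor barcodes. RORB, a nuclear receptor that marks layer 4 in rodents and primates, had 34 UMIs in members, or 14.01 CPM, and 93 in shallower neurons, or 40.4 CPM (-1.51, -2.14 to -0.94). Its thinned share was 4.29% of members (1.59 to 9.10%), 9.04% of shallower neurons (6.22 to 12.6%) and 31.5% of SYT1-poor barcodes, the highest of the 3.

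NOXA1, an activator of NADPH oxidase, had 80.4 CPM in members and 219 CPM in shallower neurons (-1.44, -1.69 to -1.21). BRD3, a chromatin reader, had 82.8 CPM in members and 189 CPM in shallower neurons (-1.19). EPHB6, an ephrin receptor without kinase activity, had 53.2 CPM in members and 122 CPM in shallower neurons (-1.19). The adhesion protein KIRREL1 (-1.67), the BMP regulator BMPER (-1.41), the RNA polymerase III repressor MAF1 (-1.37), the phospholipase PLA2G5 (-1.30), the kinase inhibitor CAMK2N2 (-1.29), the ion channel ASIC4 (-1.25) and the kinase MAP2K7 (-1.17) were lower too, as were MROH6, GMIP, CIP2A, PRRT4, ANO6, RPL36AL and ZNF653 (-1.23 to -1.16).

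Along 4 depth bins of nuclei that passed the SYT1 floor and exclusions, some of these genes differed step by step and others only in the deepest bin. LAMB1 had 27.4, 31.7, 53.4 and 87.0 CPM from under 3000 UMIs through 3000 to under 6000 and 6000 to under 12000 to the members. SPHKAP had 147, 194, 221 and 303 CPM along the same bins, and NLGN1 had 5149, 5904, 6570 and 9632 CPM. CAMK2D had 386, 336, 290 and 657 CPM, and NKAIN3 had 321, 261, 237 and 626 CPM, so both were lower in each successive bin below the members and higher in the members. GRIN1 was lower in each deeper bin, with 879, 762, 418 and 225 CPM. The glial gene S100B had 246, 80.7, 53.4 and 32.6 CPM, so the shallowest bin was the richest in it, and the part of free RNA in the lower ratios of the members was not tested. NTNG1 showed no order along the bins, with 265, 307, 245 and 310 CPM.

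**Figure D3:**
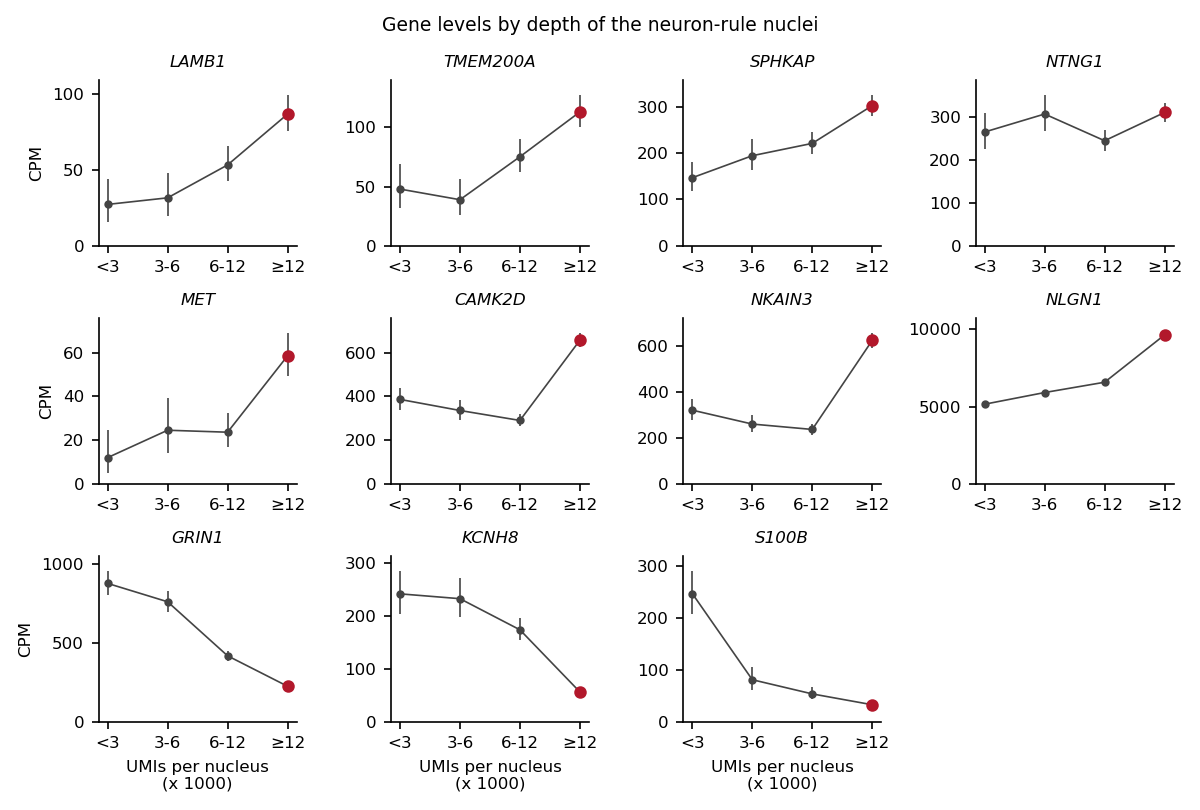
CPM of 11 genes in summed UMIs of nuclei that passed the SYT1 floor and the exclusions, in 4 bins of UMIs per nucleus, with exact 95% Poisson intervals and the members in red. LAMB1, SPHKAP and NLGN1 are highest in the members and GRIN1 and S100B lowest, while CAMK2D and NKAIN3 have their lowest value in the bin just below the members.

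The other genes of neuronal pathways were read from lists, against the median of -0.10 and the 62.2% below 0 over all tested genes. Cell adhesion and synapse-organising genes stood 20 of 23 above 0, all with intervals above 0, with a median of 0.21 and a range of -0.09 to 0.62, and none past 2-fold. The guidance receptor ROBO1 (0.62), NLGN1 (0.60) and the receptor phosphatase PTPRK (0.57) were the highest and the potassium channel partner DPP10 (-0.09) the lowest. Summed over that list, members had 139345 CPM and shallower neurons 125369 CPM.

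Ionotropic glutamate receptor subunits split, with 4 of 7 tested above 0 and 3 below, all 7 with intervals on 1 side of 0, and a median of 0.28. The sign of that median depends on the nuclei chosen, since it was -0.03 with a SYT1 floor of 2000 CPM, -0.40 without the exclusions and -0.10 against shallower neurons from 1000 UMIs. The kainate subunit GRIK2 had 2179 CPM in members and 1368 CPM in shallower neurons (0.67), and the AMPA subunit GRIA1 (0.38) and the NMDA subunit GRIN2B (0.28) were also higher. GRIK1 (-0.53), GRIK3 (-0.35) and GRIN1 were lower. Of the metabotropic receptors tested 3 of 3 were above 0 (median 0.41), among them GRM3 (0.28) and GRM8 (0.56). Of 8 GABA receptor subunits tested, 5 were above 0 and none past 2-fold (median 0.13).

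Of 22 potassium channel genes tested, 10 were above 0 and 12 below (median -0.10), with KCNN3 (0.77) and KCNC2 (0.72) highest and KCNH8 the only one past 2-fold. Of 4 sodium channel genes, 2 were above 0 (median 0.00), and of 8 calcium channel genes 6 were below 0, all 6 with intervals below 0 (median -0.29), among them CACNB3 (-0.82). Of 17 vesicle release genes, 12 were below 0 and 10 had intervals below 0 (median -0.17). RIMS3, an active zone protein, was lowest at -0.92 and UNC13C, a priming factor, highest at 0.25. SYT1 (-0.08), whose floor selected both groups, is counted among the 12 and the 10.

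Of 15 tested genes of RNA polymerase II and elongation, 11 were below 0, 8 were below the overall median and 2 were past 2-fold, BRD3 and the polymerase subunit POLR2H (-1.04), with a median of -0.12. Of 9 neuronal splicing regulators 6 were below 0 but 3 below the overall median (median -0.04), and of 8 respiratory chain genes 7 were below both (median -0.36), 2 of them with intervals below 0. Of 13 neuronal cytoplasmic genes 9 were below 0 and 7 below the overall median (median -0.12), including NEFL (-0.59) and NEFM (-0.56). Of 7 tested immediate early genes, 6 were below 0 (median -0.55), with NR4A1 lowest at -0.78.

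Layer and class markers gave no single identity. All 9 measured excitatory genes, such as the kinase CAMK2A (1218 CPM in members, 1620 CPM in shallower neurons, -0.41), had UMIs in members, and the list summed to 41044 CPM in members, 37071 CPM in shallower neurons and 4110 CPM in SYT1-poor barcodes. Of 4 tested upper layer genes 4 were below 0 (median -0.17), 1 of them with an interval below 0. GLIS3, LAMA2 and SERPINE2 had 1938, 380 and 254 CPM in SYT1-poor barcodes, above the 318, 42.5 and 80.8 CPM of members. RASGRF2 was lower there (115 CPM, against 616 CPM in members). In the deep layer intratelencephalic list, 5 of 9 were above 0 (median 0.01). Of 4 tested layer 6 corticothalamic genes 3 were below 0, and SEMA3E (0.38), an excluded gene, was above. Among layer 5 extratelencephalic genes ADRA1A was higher, with the dependence given above, and NEFM and NEFL lower, and the only near-projecting gene tested, ETV1, had a ratio of 0.11. The 5 tested inhibitory genes had a median of -0.44, from ERBB4 at -0.75 to RELN. Of these, NXPH1, ALK and RELN are excluded genes, capped by the rule in both groups. The median is the ratio of NXPH1, so it is given only as a description. The tested genes outside the rule, ERBB4 and CNR1 (0.89), went opposite ways. Several interneuron genes were near 0 in members, with 5 UMIs of DLX1, 0 of DLX2, 2 of LHX6, 12 of SST, 1 of PVALB and 0 of NPY in all 140 nuclei together. Others were not, with 1995 UMIs of ERBB4, 189 of RELN, 182 of CNR1, 121 of NXPH1, 21 of KIT and 17 of VIP. The counts of RELN, NXPH1 and VIP are limited by the rule.

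Genes listed as markers of other cell types were mostly low but present. Over 30 glial genes, members had 1772 CPM summed with a range per nucleus of 261 to 6698, shallower neurons had 1702 CPM with a range of 0 to 15618, and SYT1-poor barcodes had 12964 CPM. Of the 30, RYR3 of the astrocyte list had 245 CPM in members and 65.0 CPM in SYT1-poor barcodes. MEGF11 of the precursor list had 211 CPM in members and 144 CPM in SYT1-poor barcodes, and the rest were higher there. LHFPL3 alone had 713 CPM in members. The sum is therefore not a measure of RNA from other cell types alone. Astrocyte genes had a median log2 ratio of -0.79, with 5 of 6 tested below 0. That median was -0.01 without members and shallower neurons at 3000 CPM or more of the 30 glial genes, a set that includes these astrocyte genes. The only microglial gene with enough UMIs, INPP5D, had a ratio of -0.71, and the only endothelial or mural one, CALD1, 0.41. CALD1 had 425 CPM in members and 96.8 CPM in SYT1-poor barcodes. How many of those barcodes are endothelial or mural was not tested, so the values do not show which cells CALD1 marks. Of 2 tested oligodendrocyte genes 1 was above 0 (median 0.06), and of 3 precursor genes 2 were (median 0.25, but -0.29 with a minimum of 50 UMIs per gene), with LHFPL3 highest at 0.43. The part of these RNAs in the other results was not tested, beyond the values without glial-rich nuclei given here and below.

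**Figure D4:**
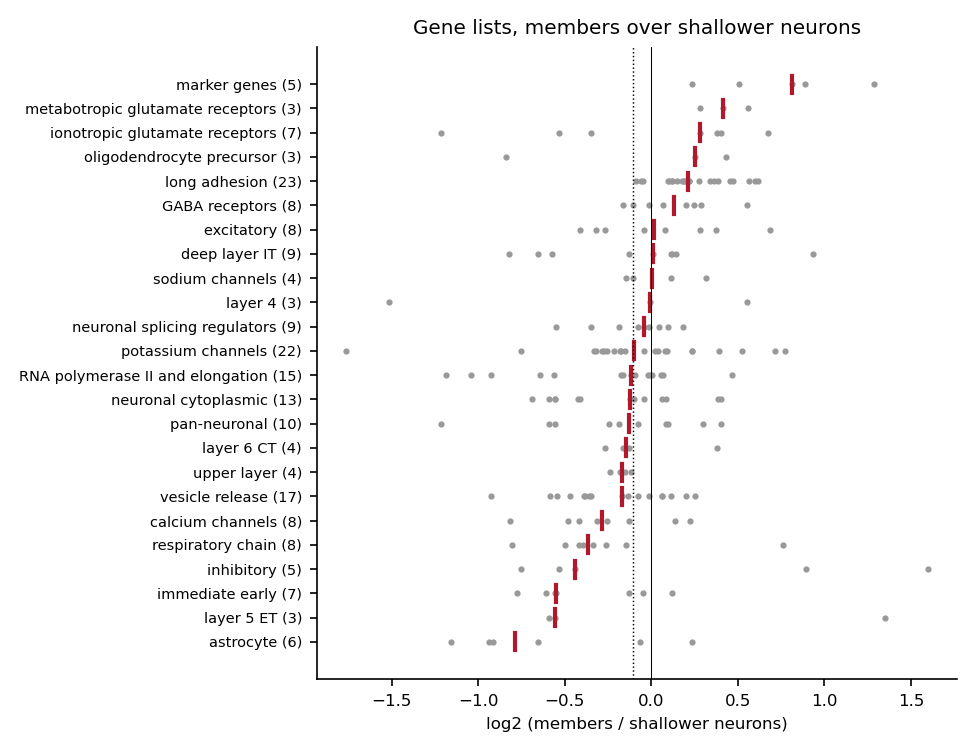
Each grey point is the log2 ratio of 1 tested gene, members over shallower neurons, grouped by list with the number of tested genes in parentheses, and the red bar is the list's median. The dotted line marks the median of all tested genes, -0.10, and the marker genes (0.81) and astrocyte genes (-0.79) stand at the ends.

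The members varied among themselves. After thinning each to 12000 UMIs, the variance divided by the mean, which is 1 for pure counting error, had a median of 1.45 over 1881 genes with a mean of at least 1 UMI, and it was above 5 for 180 genes and above 10 for 68. ERBB4, the neuregulin receptor, was the most uneven, with a ratio of 123, a median of 1 UMI, a highest count of 241 and no UMI in 48 nuclei. Unthinned, 10 members had at least 50 ERBB4 UMIs and 5 at least 100. GRIP1, a scaffold of AMPA receptors, ran from 0 to 347 UMIs around a median of 10.5, and TAFA2, a secreted protein of neurons, from 0 to 164 with 28 nuclei at 0. KCNIP4, a potassium channel partner, ran from 0 to 736 UMIs around 306.5. ADAMTSL1, ROBO1, TENM2, PDE10A, PTPRD and HOMER1 came next, with ratios of 35.04 to 59.3, followed by NRXN3, KCTD8, NEGR1, NKAIN2, KCNQ5, ABTB3, NCAM2, LRP1B, CNTNAP2 and NR4A3 at 23.5 to 34.3.

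Genes whose level over members was most like that of a marker differed by marker. LAMB1 went with IQGAP2 (r 0.561), NPNT (0.529), NKAIN3 and GLCE (0.511 each) and DPYD (0.493). TMEM200A went with PALMD (0.484), GABRB1 (0.480), GRIK2 (0.460), GALNT16 (0.449) and LEPR (0.442). NTNG1 went with ESR2 (0.695), VWC2 (0.609), SEMA6A (0.596), FBN2 (0.592) and TMEM163 (0.521). MET went with KLHL5 (0.540), MAN1A1 (0.506), SEMA6A (0.488), SEMA6D (0.437) and MAN2A1 (0.435). SPHKAP had the weakest likenesses, with TIAM1 (0.390), PKIA (0.350), NELL2 (0.343), TOGARAM2 (0.324) and KCTD16 (0.314). These values are over 140 nuclei and 2952 genes, and the top of so many is high by selection.

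To see which genes vary together, members were split into 5 groups with every second gene of the table that had a mean of at least 1 UMI, 979 in all, and described mainly by genes not used for the split, a choice made after the values had been seen. Because all genes come from the same nuclei, the groups are descriptions without a test. Groups from the other genes gave a similar but not identical split, with groups of 58, 28, 28, 23 and 3 nuclei and an adjusted Rand index of 0.787 (1 for identical splits), which was 0.943 for 2 groups and 0.919 for 3. Each group is called by the gene with the highest ratio to the other members among genes at the table positions left out of the split. No group was given a cell type name.

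The LTBP1 group had 62 nuclei, 44.3% of members, with a median of 14077 UMIs and 11.3% of its nuclei at 20000 or more. LTBP1, which binds latent TGF-beta, had 186 CPM in this group and 39.3 CPM in the other members. The matrix protein FREM1 had 606 CPM in the group and 142 CPM in the others, the G-protein regulator RGS6 had 3649 CPM in the group and 958 CPM in the others, and the transcription factor GLIS3 had 536 CPM in the group and 172 CPM in the others. The markers LAMB1 (32.8 CPM), TMEM200A (36.9), NTNG1 (60.5) and MET (8.20) were low there, of which TMEM200A and NTNG1 were used for the split, while SPHKAP had 266 CPM. DNER, a Notch ligand, had 17.4 CPM in the group and 580 CPM in the other members.

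The NPNT group had 31 nuclei, 22.1% of members, with a median of 20093 UMIs and 51.6% at 20000 or more. Nephronectin, NPNT, had 222 CPM in the group and 24.8 CPM in the other members. ITGA4 had 113 CPM in the group and 19.3 CPM in the others, the channel TRPM3 had 1033 CPM in the group and 187 CPM in the others, and NKAIN3 had 1497 CPM in the group and 332 CPM in the others. LAMB1 reached 230 CPM and SPHKAP 470 CPM. TMEM200A (279 CPM) was among the genes used for the split. KCTD8, an auxiliary subunit of GABA-B receptors, was low, with 22.9 CPM in the group and 769 CPM in the others.

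The MET group had 17 nuclei, 12.1% of members, with a median of 19171 UMIs and 41.2% at 20000 or more. MET had 236 CPM in the group and 29.3 CPM in the other members, the guidance factor SEMA3A had 225 CPM in the group and 41.3 CPM in the others, DNER had 1178 CPM in the group and 218 CPM in the others, and TAFA2 had 6925 CPM in the group and 1528 CPM in the others. SATB1, a chromatin organiser, had 1082 CPM in the group and 254 CPM in the others. RELN reached 271 CPM. NTNG1, used for the split, had 1271 CPM. GLIS3 and PDE3A had no UMI in these 17 nuclei, against 772 and 279 UMIs in the others.

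The ABTB3 group had 11 nuclei, 7.86% of members, with a median of 15745 UMIs, and its genes came from part of them. It did not recur whole when all genes were used. There 7 of its nuclei fell with 16 of the 19 nuclei of the LAMA2 group, and 1 fell with nuclei of the LTBP1 group. The other 3 formed a group of their own. ABTB3 was seen in 5 of 11 nuclei, with 677 CPM in the group and 33.3 CPM in the others. KCTD8 was seen in 5 of 11 (2592 CPM in the group and 425 CPM in the others). ERBB4 was seen in 5 of 11 (3636 CPM in the group and 604 CPM in the others), with counts of 255, 102, 275, 1 and 1 UMIs. The nuclei with 255, 102 and 275 had 18360, 8925 and 22517 CPM of the inhibitory list. No other nucleus of the group had more than 575 CPM of it. GRIP1 was seen in 11 of 11, with 6010 CPM in the group and 1047 CPM in the others. ADRA1A had 545 CPM here, 76.6% of its UMIs over all members. The inhibitory list ran from 0 to 22517 CPM per nucleus in this group. NR4A3, an activity-induced nuclear receptor, had 470 CPM and was seen in 4 of 11 nuclei, and the immediate early list ran from 226 to 17353 CPM. HOMER1, seen in 11 of 11 nuclei and used for the split, gave 2368 of the group's 3223 CPM of that list. NR4A1 had 143 CPM, ARC 28.7 CPM and FOS 5.73 CPM.

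The LAMA2 group had 19 nuclei, 13.6% of members, with a median of 14869 UMIs, and it also held the deepest barcode. LAMA2, a laminin chain, had 203 CPM in the group and 18.1 CPM in the other members. PLEKHH1, a gene of oligodendrocytes, had 511 CPM in the group and 54.1 CPM in the others. PTGDS, a prostaglandin synthase, had 349 CPM in the group and 37.5 CPM in the others. BCAN, a proteoglycan of astrocytes and oligodendrocyte precursors, had 225 CPM in the group and 35.6 CPM in the others. ERBB4 was high here too, with 2666 CPM in the group and 541 CPM in the others, and was seen in 19 of 19 nuclei. Its counts were 286 and 281 UMIs in 2 of them and at most 70 in any other. This group held 42.9% of member ERBB4 UMIs, and the ABTB3 group 31.8%. The oligodendrocyte list summed to 480 CPM in this group and to 40.1 to 91.4 CPM in each of the other groups, the microglial list to 274 CPM here and 11.5 to 114 CPM there, and the inhibitory list ran from 148 to 17434 CPM per nucleus. By a doublet score (Scrublet), the group had a median of 0.154 and each other group 0.0388 to 0.0629, and it held 8 of the 9 members above the library's 95th percentile and both of the 2 members called doublets. Scrublet called 4 of 2125 barcodes in the library. Whether these 19 barcodes hold more than 1 nucleus was not tested further.

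**Figure D5:**
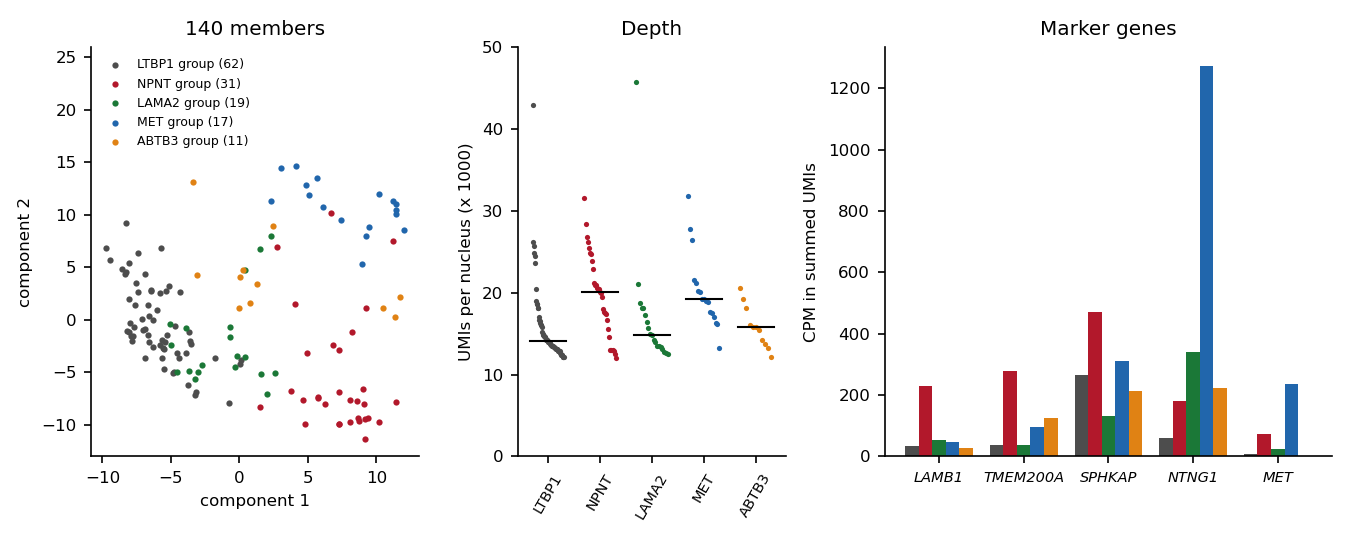
Left, the 140 members on the first 2 principal components of the genes used for the split, coloured by group. Middle, UMIs per nucleus by group with the median as a bar, and right, CPM of the 5 marker genes in each group's summed UMIs, where LAMB1 and SPHKAP are highest in the NPNT group and NTNG1 and MET in the MET group (TMEM200A and NTNG1 were used for the split).

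The genes with the highest ratios of members to shallower neurons were unevenly spread over these groups. Of the 20 highest, 6 were used for the split, and of the other 14, 7 had their highest level in the NPNT group, 5 in the MET group and 2 in the ABTB3 group. NPNT and MET are among these 14 and name their groups by their high ratio there, so their own placement follows from the naming. Apart from its naming gene (75.1% of NPNT UMIs), the NPNT group held 76.1% of SVEP1 UMIs and 60.4% of NKAIN3 UMIs. The MET group held 74.0% of COL4A4 and 72.6% of MAP3K20. GRIN1, lower in members, was at 362 CPM in the LAMA2 group and at 199 to 219 CPM in each of the others.

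Without the 19 LAMA2 nuclei, while the shallower neurons stayed whole, 32 genes were at least 2-fold higher in members and 133 lower, in place of 25 and 51. Leaving glial-rich nuclei out of both sides gave 31 higher and 54 lower. Without the 11 ABTB3 nuclei 26 were higher and 63 lower, and ADRA1A then had a ratio of -0.62. Among the 75 nuclei of at least 15000 UMIs, set against neurons from 3000 to under 15000, 45 genes were at least 2-fold higher and 70 lower, and the marker median was 1.17. Against shallower neurons of at least 6000 UMIs alone, 28 genes were higher and 15 lower.

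The 34 deep neurons left out by the exclusions had lower levels of some of the member genes at a like depth. PALMD had 119 CPM in members (106 to 134) and 17.9 CPM in the other deep neurons (8.60 to 33.0), and LAMB1 had 87.0 CPM in members and 35.9 CPM in the others (21.9 to 55.4). TMEM200A had 113 CPM in members and 82.5 CPM in the other deep neurons (60.4 to 110), and SPHKAP 303 CPM in members and 145 CPM in the others (115 to 181). GRIN1 had 225 CPM in members and 228 CPM in the other deep neurons (190 to 271), and NTNG1 had 310 CPM in members and 344 CPM in the others (297 to 397), so neither differed beyond counting error. KCNH8 went the other way, with 56.1 CPM in members and 382 CPM in the other deep neurons (332 to 437). Among the 20 genes highest in members over shallower neurons, some were also higher in the other deep neurons than in members. These were SEMA6A (226 CPM there, 157 CPM in members), ADRA1A (133 and 51.1), SH3BP4 (62.8 and 48.2) and the excluded gene RELN (122 and 77.9). The rest of the 20 were lower there.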

How the data were processed

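The authors deposited, per library, a matrix of whole-number UMI counts per feature and barcode with no normalization, as the values show. DRAGEN is named in the submitters' processing notes, and Seurat in the design text. Neither the version nor the genome build, annotation or barcode calling is given in these sources, so no coordinates or sequences are printed. Of 12652 distinct symbols, 12652 matched the RefSeq table of ARS-UI_Ramb_v3.0, used for names only.

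Members, the gene lists and the marker genes were chosen with earlier results of these data known. Counts were summed per group of nuclei of the pre-processed library, from 1 animal. Log2 ratios are of CPM with 0.5 counts added, for genes with at least 100 summed UMIs. Intervals are exact at 95% (conditional binomial for ratios, Poisson for sums, Clopper-Pearson for shares) and cover counting error only. With 1 library there is no test and no p-value. Nuclei were thinned without replacement to 3000 UMIs for detected genes and shares, which left out none, and to 12000 for spread.

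Groups among members came from Ward clustering of 5 principal components of scaled log2 CPM with 100 added. Scrublet scores came from scanpy 1.11.5, and no barcode was removed as a doublet except in an alternative. Other tools were numpy 2.4.6, scipy 1.17.1 and scikit-learn 1.9.0. Ratios and spread were checked on simulated counts. Named genes were the selection genes, the markers, the list genes, the 20 highest and 20 lowest ratios with a symbol, the 10 genes with most UMIs, the 20 most uneven genes and 5 correlates per marker. The genes named for the groups, the depth bins and the deep post-processed barcodes were chosen after their values were seen. 14 alternatives were planned and 3 added. A few genes that the rule names are not reported here.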

Additional observations from a re-analysis of the deposited data

How the results depend on the processing

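The number of members was 75 with a floor of 15000 UMIs, where 45 genes were at least 2-fold higher and the marker median log2 ratio was 1.17. Counts of genes at least 2-fold lower were 15 against shallower neurons of at least 6000 UMIs, 138 with those of at least 1000 UMIs, 86 with the mean of CPM over nuclei, 26 when scaled to the median gene ratio (36 higher) and 133 without the LAMA2 nuclei. With at least 50 summed UMIs per gene 42 genes were higher and 107 lower, and with at least 500 summed UMIs 5 were higher and 6 lower, out of 5200 and 1600 tested. RELN had a log2 ratio of -2.34 and ADRA1A one of -0.29 under the rule without the 4 gene exclusions, and ADRA1A one of -0.62 without the ABTB3 nuclei. PLA2G5 was at -0.50 with the lower floor on UMIs per nucleus that was tried. The cause of these shifts was not tested, except that the gene minimum changes how many genes enter. The marker median lay between 0.58 and 1.17 and the long adhesion median between 0.17 and 0.32 over the alternatives. The inhibitory median, which rests partly on excluded genes, ran from -1.44 to 0.28. The astrocyte median ran from -1.59 to -0.01. The precursor median ran from -0.29 to 0.36 and the ionotropic receptor median reached -0.40. The difference in detected genes at a common depth lay between -77 and -41.5 under all alternatives run. No paired analysis was possible because each condition has 1 library and all comparisons lie within the pre-processed one. Genes near the minimum of 100 UMIs carry intervals over 1 log2 unit wide, which limits what depth can show for them.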
